A study of Mus musculus with 6 samples.

Results

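The neuropeptide genes described here were the precursor genes Npy, Cck, Penk, Pdyn, Tac1, Tac2, Adcyap1, Gal, Crh and Nts. They were picked by name as a family, with earlier results of these data known, and all 10 were found among the 41386 genes of the hippocampal table. Expression was measured by bulk RNA-seq in 3 libraries from mice subjected to cerebral ischemia/reperfusion (I/R) and 3 libraries from sham-operated mice. All mice were males of 56 days, labelled C57BL/6 and given as C57BL/6J in the study's methods, with no transgene named in the labels. In I/R a filament closed the middle cerebral artery for 1.5 h and was then withdrawn for 24 h of reperfusion, whereas the sham group had the same surgery without filament insertion. The hippocampus came from the operated side, and per the study's methods each library pooled 3 hippocampi, so that p-values measure the spread between pools.

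Neuropeptides are made as long precursor proteins that are cut by proprotein convertases, trimmed and often amidated inside dense-core vesicles, and released during strong or repeated firing. They act slowly and at a distance, mostly on G protein-coupled receptors. In the hippocampus NPY and cholecystokinin mark classes of GABAergic interneurons, dynorphin and enkephalin are found in the granule cells and their mossy fibers, and PACAP, corticotropin-releasing hormone and galanin are classed as peptides of stress and injury. In bulk tissue, fewer cells of a type and less RNA per cell cannot be told apart.

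The stretch upstream of each gene is where transcription factors of the firing and stress responses can bind, so the promoters of 4 members are shown. Each is the 250 bases before the annotated start, read 5′ to 3′ on the strand of the gene, from RefSeq on GRCm38.p6. Cck and Tac1 are shown because they held a match to TGCGTCA, a variant of the cAMP response element, and Pdyn and Gal because they were the members with the largest fall and the largest rise. Capitals mark the matched letters. The positions are chr9:121495695-121495944 (minus strand) for Cck, chr6:7554811-7555060 (plus strand) for Tac1, chr2:129699939-129700188 (minus strand) for Pdyn and chr19:3414545-3414794 (minus strand) for Gal.
Cck: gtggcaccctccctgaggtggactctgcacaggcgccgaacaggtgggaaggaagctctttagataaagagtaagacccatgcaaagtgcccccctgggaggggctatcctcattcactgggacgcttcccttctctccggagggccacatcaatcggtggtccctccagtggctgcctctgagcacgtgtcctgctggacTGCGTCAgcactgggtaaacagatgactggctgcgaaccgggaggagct
Tac1: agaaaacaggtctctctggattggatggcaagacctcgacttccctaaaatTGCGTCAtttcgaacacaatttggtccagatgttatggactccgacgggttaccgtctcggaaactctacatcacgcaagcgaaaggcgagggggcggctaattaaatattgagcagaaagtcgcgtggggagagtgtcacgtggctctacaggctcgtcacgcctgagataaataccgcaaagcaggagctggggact
Pdyn: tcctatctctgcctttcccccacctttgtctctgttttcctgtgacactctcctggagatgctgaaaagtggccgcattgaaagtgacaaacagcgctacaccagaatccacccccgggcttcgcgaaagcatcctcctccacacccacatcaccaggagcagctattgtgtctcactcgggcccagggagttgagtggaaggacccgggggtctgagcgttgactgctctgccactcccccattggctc
Gal: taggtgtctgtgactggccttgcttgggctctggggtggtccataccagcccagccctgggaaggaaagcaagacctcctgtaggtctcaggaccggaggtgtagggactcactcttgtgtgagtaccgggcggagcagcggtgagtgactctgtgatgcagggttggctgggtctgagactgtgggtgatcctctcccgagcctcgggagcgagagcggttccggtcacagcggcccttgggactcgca

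Promoter entries were found for 8 of the 10 members, in 10 windows, and not for Penk and Crh. In all, 4 motifs were searched on both strands, and no match in a member's window overlapped another. TGCGTCA lay at -49 to -43 in Cck and at -199 to -193 in Tac1, counted back from the start, and 1.75% of 32851 windows of the same length held it. The full cAMP response element TGACGTCA was in 0 of the 10 windows and in 1.55% of all. The AP-1 letters TGANTCA were in 1 window, that of Nts at -207 to -201, against 6.75% of all windows, and TATAAA was in 1, that of Adcyap1 at -58 to -53, against 12.4%. The printed Pdyn and Gal windows held none of the 4 motifs. A match describes the letters only.

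The libraries held 37493042 to 44788547 counts. Across the table, 7756 of 18569 tested genes were differentially expressed genes (DEGs), a share of 41.8%, with 21.8% higher and 19.9% lower after I/R. A DEG had an adjusted p under 0.05 from edgeR's quasi-likelihood F-test, Benjamini-Hochberg (BH) adjusted over the whole table, and also a fold change over 1.2. Over all tested genes the median was 0.03 on the log2 scale, and scaling by library size alone moved it to 0.28 and the share of higher calls among all calls from 52.3% to 75.8%. Levels are CPM, counts scaled to a common depth after correction for library composition, given as mean ± SD of 3 libraries. I/R replicate 3 and sham replicate 1 stood apart in choroid plexus markers: the transthyretin gene Ttr had 68521, 138610 and 810 counts across I/R replicates 1 to 3 and 385, 101015 and 140679 counts across sham replicates 1 to 3. The summed CPM of the 15 listed choroid plexus markers ranged from 155 to 5011 after I/R and from 181 to 6440 in the sham group, with 1 of the 15 (Sostdc1) called lower.

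Of the 10 members, Tac2 had 0 counts in every library and the other 9 were tested. Penk, Gal and Crh rose after I/R, Cck and Pdyn fell, and Npy, Tac1, Adcyap1 and Nts did not pass the test. The 5 DEGs were 55.6% of the members tested, beside 41.8% of all tested genes. The median log2 fold change over the 9 tested members was -0.23, and it turned to 0.02 with library size alone and on both FPKM scales. In the 5 DEGs no I/R library lay within the range of the sham libraries, whereas the groups of the other tested members overlapped. Such a lack of overlap was thus seen in 55.6% of the tested members, near the 57.4% of all tested genes. Of all tested genes, 29.3% lacked overlap on the higher and 28.1% on the lower side. For each of these 5 the exact two-sided permutation test of CPM gave p = 0.1, the smallest that 3 libraries against 3 allow.

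**Figure D1:**
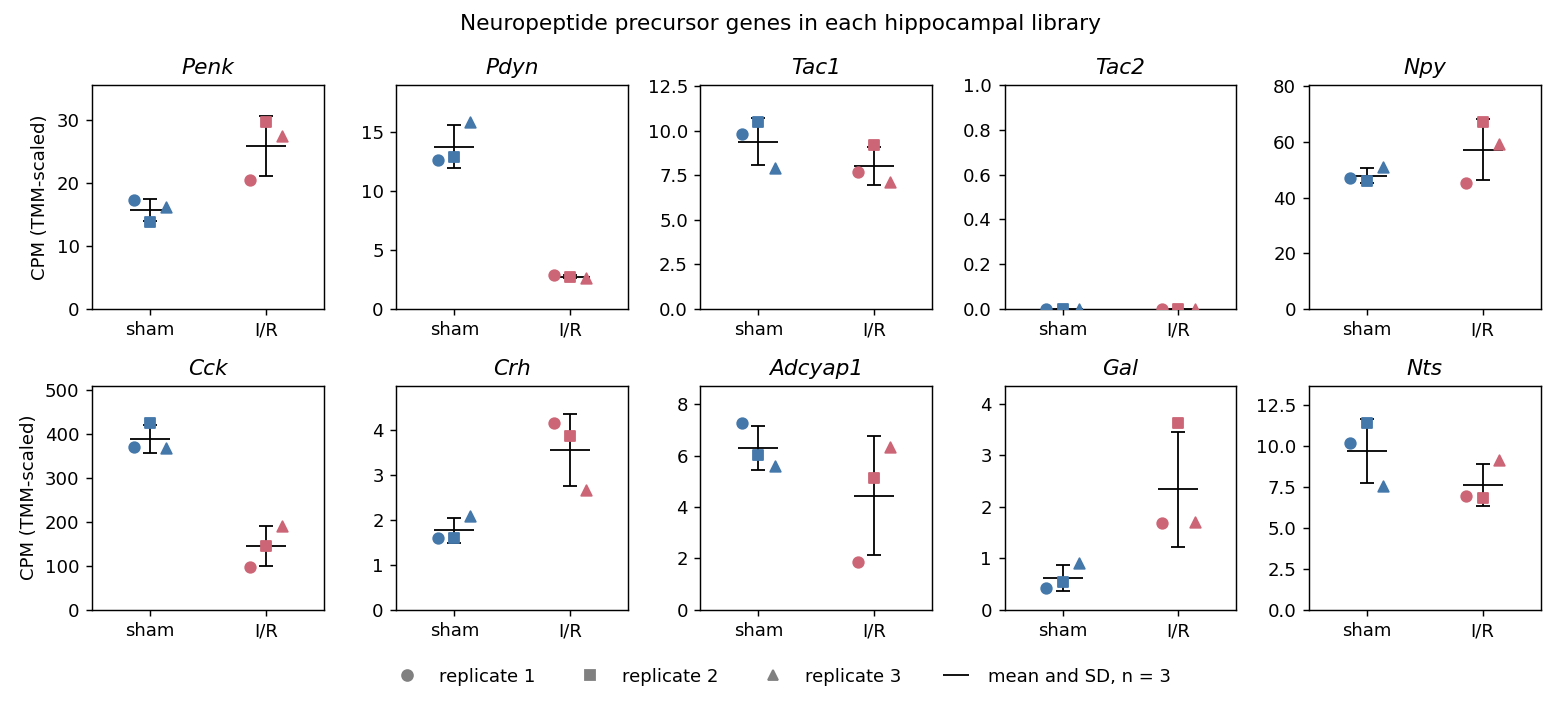
CPM of each of the 10 members in every library, with 1 panel per gene, I/R and sham on the x axis, points for libraries and bars for the mean and SD; scales differ between panels. Pdyn lies between 2.63 and 2.86 CPM after I/R and between 12.6 and 15.8 in the sham group, while the groups of Npy overlap.

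The opioid precursors moved in opposite directions. Pdyn encodes prodynorphin, the source of the dynorphins that act on the kappa opioid receptor (chromosome 2, 127973749 to 127989014, minus strand, on the BALB/cJ assembly used by the table). Its counts were 130, 109 and 105 across I/R replicates 1 to 3 and 491, 522 and 544 across sham replicates 1 to 3. Every I/R library lay far below every sham library, and the I/R replicates differed little among themselves. Pdyn had 2.74 ± 0.116 CPM after I/R and 13.7 ± 1.80 in the sham group, 5.02-fold lower after I/R, with a log2 fold change of -2.33 (SE 0.16, 95% interval -2.69 to -1.96, BH-adjusted p = 0.000215). Across the 19 other settings tried its log2 fold change ran from -2.39 to -1.73, and it was a DEG in all 19. The unadjusted p, 1 of these settings, could not lose the call of any DEG.

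Penk encodes proenkephalin, the source of Met- and Leu-enkephalin, which act on delta and mu opioid receptors (chromosome 4, 653785 to 659073, minus strand). It had 935, 1186 and 1097 counts across the I/R replicates and 675, 563 and 555 across the sham replicates. All I/R libraries were above all sham libraries, the nearest pair being I/R replicate 1 and sham replicate 1. The mean was 25.9 ± 4.76 CPM after I/R and 15.8 ± 1.75 in the sham group, 1.64-fold higher, with a log2 fold change of 0.72 (SE 0.16, 95% interval 0.35 to 1.08, BH-adjusted p = 0.00912). Leaving out I/R replicate 3 and sham replicate 1 together gave 0.73 with an BH-adjusted p of 0.0502. Penk overlaps A830012C17Rik, a gene on the opposite strand, over 499 bases, and that gene had 6 counts in all libraries together; without stated use of strand, the reads of the overlap cannot be assigned.

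Cck and Npy, peptides of interneuron classes, were the most abundant of the 10 per gene length. Cck encodes cholecystokinin, the peptide of a class of basket cells that is also made by some principal cells (chromosome 9, 119599235 to 119605065, minus strand). Its counts were 4442, 5827 and 7625 after I/R and 14456, 17279 and 12687 in the sham group, or 97.6, 146 and 191 CPM against 370, 425 and 369 CPM. The highest I/R library held less than the lowest sham library, and I/R replicate 1 was the lowest of all. Cck was 2.68-fold lower after I/R, 145 ± 46.6 against 388 ± 32.1 CPM, with a log2 fold change of -1.42 (SE 0.22, 95% interval -1.94 to -0.91, BH-adjusted p = 0.0023). It was a DEG in all 19 other settings, between -1.72 and -1.18.

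Npy encodes neuropeptide Y, which dampens excitatory transmission through presynaptic receptors (chromosome 6, 46968026 to 46974812, plus strand). It had 45.2, 67.0 and 59.3 CPM after I/R and 46.9, 45.8 and 50.9 CPM in the sham group. I/R replicates 2 and 3 were above all sham libraries, whereas I/R replicate 1 was below them. The log2 fold change was 0.26 (SE 0.14, 95% interval -0.07 to 0.59, BH-adjusted p = 0.185) and did not pass the test. It passed without I/R replicate 1, at 0.40 with a BH-adjusted p of 0.00122, and with library size alone, at 0.51 with a BH-adjusted p of 0.0126. On both FPKM scales it also passed, at 0.49 (BH-adjusted p by limma = 0.0147 and 0.0137).

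Values of other interneuron genes stood beside these results. Of 20 interneuron markers, 11 were lower and 1 (the serotonin receptor gene Htr3a, named after its value was seen) was higher. These were 55% and 5%, beside 19.9% and 21.8% of all genes. Their summed CPM was 1564 to 1751 after I/R and 2344 to 2357 in the sham group. The GABA-synthesis gene Gad1 fell by 0.29 on the log2 scale (SE 0.09, BH-adjusted p = 0.0352) and the vesicular GABA transporter gene Slc32a1 fell by 0.38 (SE 0.09, BH-adjusted p = 0.0139). Gad2 had a log2 fold change of -0.12 (SE 0.10, BH-adjusted p = 0.334). Of 16 markers of hippocampal principal cells, which share Prox1 with the interneuron list, 13 (81.2%) were lower and 0 higher. Their summed CPM was 722 in I/R replicate 1, 1747 and 1893 in I/R replicates 2 and 3, and 3457 to 3586 across the sham replicates. None of these markers was at 0 in all libraries, and their part in the member results was not tested.

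The tachykinin precursors showed no DEG. Tac1 encodes substance P and neurokinin A (chromosome 6, 4272093 to 4283334, plus strand), and it had 7.67, 9.21 and 7.15 CPM after I/R and 9.81, 10.5 and 7.91 CPM in the sham group. The groups overlapped, and the log2 fold change was -0.23 (SE 0.17, 95% interval -0.62 to 0.16, BH-adjusted p = 0.306), with a sign that turned to 0.02 when only library size was used. Tac2, the source of neurokinin B (chromosome 10, 126497657 to 126505091, plus strand), had 0 counts in all 6 libraries, which allows up to 0.0789 CPM in the sham group and 0.0717 CPM after I/R at 3 counts a library. Over 7414 bases Tac2 lies inside the annotated span of Myo1a on the same strand, a gene with 108 counts over the 6 libraries, and reads that fall on both genes can be dropped by the counter, so that limit covers counted reads only.

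Of the peptides tied to stress and injury, Gal and Crh rose and Adcyap1 did not pass the test. Gal encodes galanin, a peptide that rises in many injured neurons (chromosome 19, 163332 to 167874, minus strand). Its counts were low, 77, 145 and 68 after I/R and 16, 22 and 31 in the sham group. Every I/R library was above every sham library, and I/R replicate 2 was the highest. The means were 2.34 ± 1.11 and 0.617 ± 0.254 CPM, 3.80-fold higher after I/R, with a log2 fold change of 1.92 (SE 0.44, 95% interval 0.90 to 2.95, BH-adjusted p = 0.0105). It remained a DEG in all 19 other settings, between 1.31 and 2.28, although the BH-adjusted p reached 0.05 to rounding without sham replicate 2.

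Crh encodes corticotropin-releasing hormone, made in the hippocampus by scattered interneurons (chromosome 3, 16576290 to 16578285, minus strand). It had 189, 154 and 106 counts after I/R and 62, 65 and 72 in the sham group. All I/R libraries were above all sham libraries. Crh was 2.02-fold higher after I/R, 3.55 ± 0.795 against 1.76 ± 0.288 CPM, with a log2 fold change of 1.01 (SE 0.26, 95% interval 0.42 to 1.61, BH-adjusted p = 0.0151). The call was lost, with log2 fold changes of 0.93 to 0.94, without I/R replicate 2 (BH-adjusted p = 0.0523), without sham replicate 1 (0.0587) and without sham replicate 2 (0.0622).

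Adcyap1 encodes PACAP, a peptide of the secretin family (chromosome 17, 93573747 to 93579816, plus strand). It had 1.87, 5.13 and 6.33 CPM after I/R and 7.27, 6.03 and 5.61 CPM in the sham group, so that I/R replicate 1 was far below the others and I/R replicate 3 lay within the sham range. Its log2 fold change was -0.51 (SE 0.39, 95% interval -1.42 to 0.40, BH-adjusted p = 0.333) and came to -0.14 without I/R replicate 1. Nts encodes neurotensin and neuromedin N (chromosome 10, 100973998 to 100982218, minus strand), and it had 6.94, 6.80 and 9.10 CPM after I/R and 10.1, 11.4 and 7.56 CPM in the sham group. The groups overlapped through I/R replicate 3 and sham replicate 3, and the log2 fold change was -0.35 (SE 0.20, 95% interval -0.81 to 0.11, BH-adjusted p = 0.196).

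**Figure D2:**
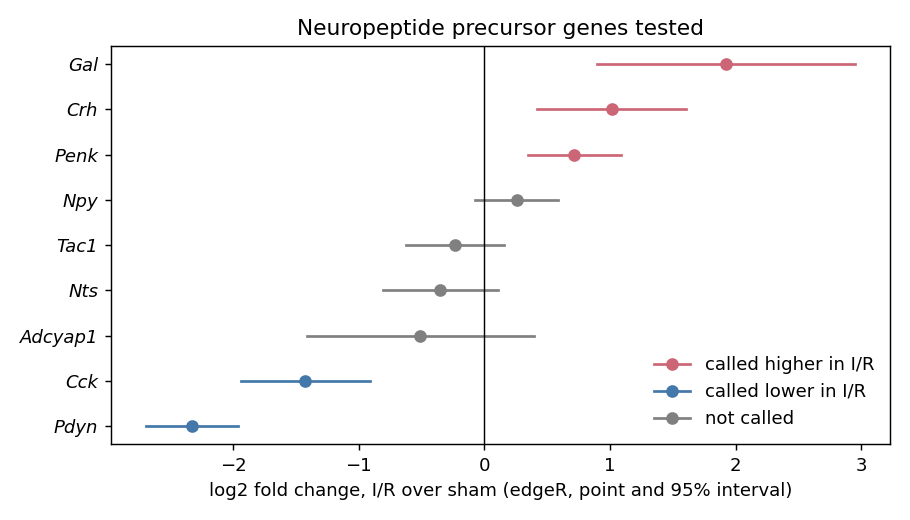
Log2 fold change of I/R over sham for the 9 tested members (x axis), with 95% intervals of edgeR's quasi-likelihood fit as horizontal bars and DEGs marked by color. The intervals of Gal, Crh and Penk lie above 0, those of Cck and Pdyn below 0, and the other 4 include 0.

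Levels were ordered between genes by the deposited FPKM, which divides by gene length and by library counts. In the sham group, Cck was highest at 518 ± 39.0 FPKM, followed by Npy at 77.4 ± 4.69. Pdyn at 11.0 ± 1.46 and Penk at 10.5 ± 1.24 overlapped, as did Nts at 7.54 ± 1.49 and Tac1 at 6.47 ± 0.894. Adcyap1 had 2.76 ± 0.390, and Crh at 1.22 ± 0.203 and Gal at 0.794 ± 0.328 overlapped. After I/R, Cck at 229 ± 65.7 and Npy at 110 ± 17.1 remained first and second in FPKM, and Penk at 20.4 ± 2.96 came next without overlap. Nts at 7.06 ± 1.05 and Tac1 at 6.58 ± 0.837 overlapped, and so did the neighbours among Gal at 3.57 ± 1.62, Crh at 2.95 ± 0.757, Pdyn at 2.62 ± 0.229 and Adcyap1 at 2.29 ± 1.13. Tac2 was listed at 0 in both groups.

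The members' summed FPKM was 297, 403 and 452 after I/R and 615, 676 and 616 in the sham group, without overlap. Cck made up 81.4% ± 1.64 of this sum in the sham group and 58.9% ± 5.57 after I/R. Npy took 12.2% ± 1.28 in the sham group and 29.0% ± 3.78 after I/R, and Penk took 1.66% ± 0.275 and 5.39% ± 0.615. Pdyn went from 1.74% ± 0.287 in the sham group to 0.712% ± 0.226 after I/R. A share moves with every member of the sum, so these shares describe the composition and not the change of each gene.

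**Figure D3:**
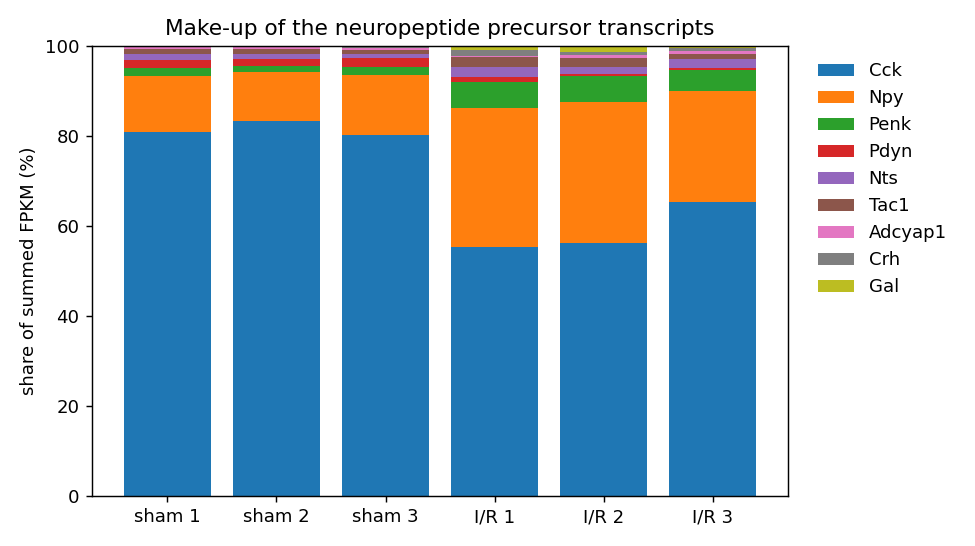
Share of each member in the summed FPKM of the 10 members (y axis, percent) in each of the 6 libraries, drawn as stacked bars from 0 to 100; Tac2, at 0, is not drawn. Cck takes 80.1% to 83.3% in the sham libraries and 55.2% to 65.4% in the I/R libraries.

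By Euclidean distance of log2 CPM from the sham mean over the 6 libraries, the named genes nearest to Pdyn were Neurog2 (distance 0.624, log2 fold change -2.38), Gm16758 (0.655, -2.43) and B3gat2 (0.770, -2.01). Those nearest to Gal were Hspb6 (0.655, 1.98), Vil1 (0.721, 1.84) and Snord19 (0.755, 2.75). These distances describe likeness over 6 libraries in 2 groups and carry no test.

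The receptors were next examined, since a peptide acts only where its receptor is present. The list of 26 receptors and binding proteins of the members' peptides also held Oprl1, an opioid receptor relative whose ligand nociceptin comes from Pnoc and not from a member. Of the 26, 25 were in the table, Npy4r, Npy6r, Cckar and Tacr2 were below the count filter, and 21 were tested. One was higher and 10 were lower after I/R, 4.76% and 47.6% of those tested beside 21.8% and 19.9% of all genes, with a median log2 fold change of -0.64. Their summed CPM was 493, 724 and 812 after I/R and 1519 to 1569 in the sham group. Most of the sham sum was Sort1, at 902 to 922 CPM, which had 149, 343 and 395 CPM after I/R. The sum therefore largely follows this 1 gene.

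All 3 tested NPY receptors fell. Npy2r, the presynaptic receptor, had 7.36, 23.3 and 32.3 CPM after I/R and 79.7, 61.3 and 69.1 CPM in the sham group, with a log2 fold change of -1.74 (SE 0.44, BH-adjusted p = 0.0151). The groups did not overlap and I/R replicate 1 was the lowest; with no count filter the BH-adjusted p was 0.117. Npy1r, the main postsynaptic receptor, fell by 1.24 on the log2 scale (SE 0.17, BH-adjusted p = 0.00154), and Npy5r fell by 1.47 (SE 0.26, BH-adjusted p = 0.00379). Sort1 encodes sortilin, which binds neurotensin and sorts proteins inside cells. It had 149, 343 and 395 CPM after I/R and 902 to 922 CPM in the sham group, with a log2 fold change of -1.62 (SE 0.32, BH-adjusted p = 0.00538). The neurotensin receptor gene Ntsr2, known from astrocytes, fell by 0.84 (SE 0.10, BH-adjusted p = 0.000878), and Ntsr1 had -0.71 (SE 0.29, BH-adjusted p = 0.0786).

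Among opioid receptors, Oprd1 (delta) fell by 0.83 on the log2 scale (SE 0.15, BH-adjusted p = 0.00384) and Oprl1 (the nociceptin receptor) by 0.71 (SE 0.20, BH-adjusted p = 0.0218). Oprm1 (mu) had a log2 fold change of -0.24 (SE 0.25, BH-adjusted p = 0.485) and Oprk1 (kappa, the dynorphin receptor) 0.09 (SE 0.30, BH-adjusted p = 0.840). The main brain cholecystokinin receptor gene Cckbr fell by 0.67 (SE 0.18, BH-adjusted p = 0.020). The calls of Oprl1 and Cckbr were lost with library size alone. Both were also lost on the 2 FPKM scales (BH-adjusted p by limma = 0.0571 and 0.0545 for Oprl1, 0.115 and 0.105 for Cckbr). The Oprl1 call was lost without any 1 of the sham replicates (BH-adjusted p = 0.059 to 0.0724). That of Cckbr was lost without I/R replicate 2 (BH-adjusted p = 0.0511) or sham replicate 2 (0.072).

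Tacr1, the receptor of substance P, was the receptor gene that rose. It had 4.72, 4.28 and 3.85 CPM after I/R and 1.54, 1.70 and 2.01 CPM in the sham group, without overlap, and a log2 fold change of 1.29 (SE 0.21, BH-adjusted p = 0.00263). Tacr3, the receptor of neurokinin B, had -0.43 (SE 0.27, BH-adjusted p = 0.228). Adcyap1r1, the PACAP receptor, fell by 0.64 (SE 0.09, BH-adjusted p = 0.00164), and Crhr1, the main brain receptor of Crh, fell by 0.73 (SE 0.18, BH-adjusted p = 0.0149). The Crhr1 call was lost with library size alone (BH-adjusted p = 0.0791), without sham replicate 2 (0.0641), and without I/R replicate 3 and sham replicate 1 together (0.0891). It was also lost on both FPKM scales (BH-adjusted p by limma = 0.0928 and 0.0946). The receptor genes Vipr1, Vipr2, Galr1, Galr2 and Crhr2 and the binding protein gene Crhbp did not pass the test, with log2 fold changes of -0.35 to 0.29; the BH-adjusted p ran from 0.123 to 0.964, and without I/R replicate 3 Crhbp and Ntsr1 passed it (-0.52 with BH-adjusted p = 0.00994, and -1.02 with 0.0219).

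**Figure D4:**
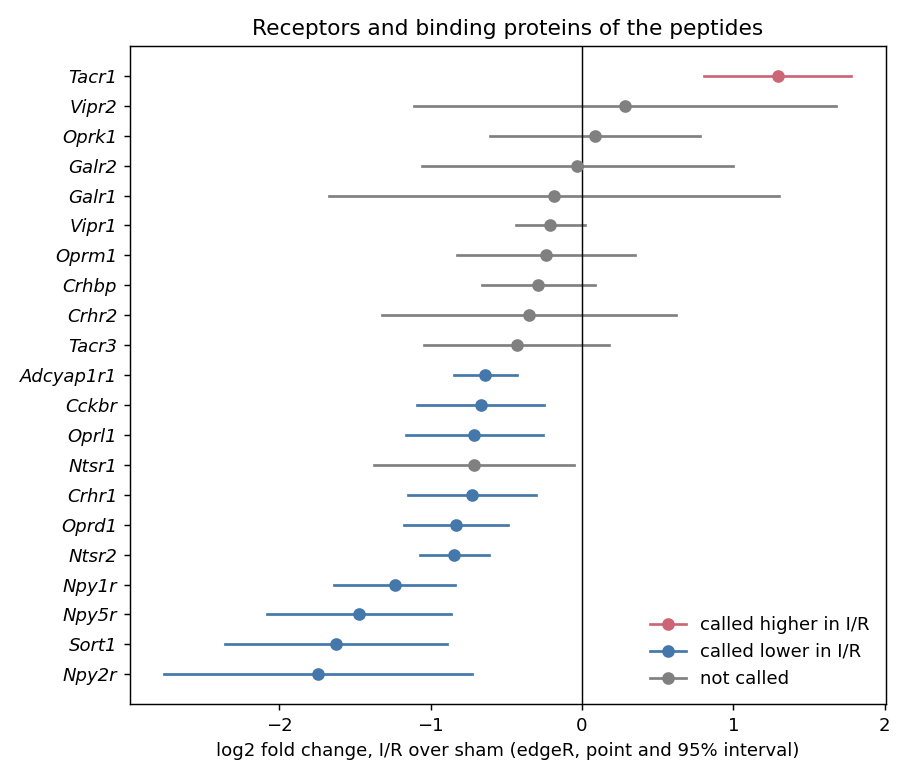
Log2 fold change of I/R over sham for the 21 tested receptors and binding proteins (x axis), ordered by that value, with 95% intervals of the edgeR fit and color for the call. Tacr1 is the gene called higher, at 1.29, and Npy2r has the lowest value, at -1.74.

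Genes that make and store the peptides were read next. Of 15 processing enzymes and their chaperones, 4 were higher and 4 lower, 26.7% each beside 21.8% and 19.9% of all genes. The convertase gene Pcsk2 fell by 0.96 on the log2 scale (SE 0.26, BH-adjusted p = 0.0206), as did its chaperone gene Scg5, by 0.99 (SE 0.24, BH-adjusted p = 0.012), and Pcsk1n and Cpe were the other lower genes. Furin rose by 0.83 (SE 0.16, BH-adjusted p = 0.00551), and Pcsk5, Pcsk7 and Cpd were the other higher genes. The genes of this group were named after their values were seen. Pcsk1 had 0.03 (SE 0.12, BH-adjusted p = 0.839) and the amidating enzyme gene Pam -0.11 (SE 0.09, BH-adjusted p = 0.342).

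Of 17 dense-core vesicle genes, 1 was higher and 6 lower, 5.88% and 35.3% beside 21.8% and 19.9% of all genes. The share called either way, 41.2%, was near the 41.8% of all genes. The lower genes with the largest changes were Cadps2 (-1.46, SE 0.21, BH-adjusted p = 0.00157), Ptprn2 (-1.33, SE 0.18, BH-adjusted p = 0.00131), Rab3a (-1.13, SE 0.21, BH-adjusted p = 0.00482), Chgb (-1.12, SE 0.30, BH-adjusted p = 0.0186) and Cadps (-1.01, SE 0.20, BH-adjusted p = 0.00577). Cadps and Cadps2 prime vesicles for release and Chgb is a granin of the vesicle core. The granin gene Scg2, the precursor of secretoneurin, was the higher gene, at 0.73 (SE 0.11, BH-adjusted p = 0.00172). The Chgb call was lost with no count filter (BH-adjusted p = 0.0599) and without sham replicate 2 (0.0651) or 3 (0.0531). Over both groups of genes, 5 were higher and 10 lower of 32 with a median of -0.15. With library size alone 8 were higher and 8 lower, beside 6334 higher and 2027 lower of all 18569 tested genes. The median of the 32 then turned to 0.11 (0.07 and 0.09 on the FPKM scales).

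Extracellular and cytosolic peptidases that cut released peptides were also measured. Of 12 tested, 3 were higher and 3 lower, 25% each beside 21.8% and 19.9% of all genes. The median log2 fold change of 0.13 turned to -0.12 without I/R replicate 1 and was 0.40 with library size alone. Ece1, the endothelin-converting enzyme gene, rose by 1.12 (SE 0.24, BH-adjusted p = 0.00739), and Mme, the gene of neprilysin, which degrades enkephalins and substance P, fell by 1.12 (SE 0.19, BH-adjusted p = 0.00277). The others, named after their values were seen, were Nln and Prep on the higher side and Lnpep and Npepps on the lower side, between -0.35 and 0.47.

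A list of 40 other peptide precursors gives the wider background of the 10 members. Of these, 39 were in the table, Iapp had 0 counts in every library, 17 were below the count filter and 21 were tested, of which 9 were higher and 2 lower after I/R. These were 42.9% and 9.52% of those tested, beside 21.8% and 19.9% of all genes, and the median log2 fold change was 0.68. Of the 9 higher genes, Ucn2, Nmu and Npvf were at 0 in every sham library and passed the count filter through I/R alone, so they had to differ. Prok2, with 6, 5 and 5 sham counts, and Trh, with 3, 12 and 12, also needed their I/R counts to pass it. These shares are therefore a description. With Ucn2, Nmu and Npvf at their lower bounds the median is also 0.68, but it could not move, since all these bounds lie above it. With at least 10 counts in every library, which leaves out all of these genes, 4 were higher and 2 lower of 15, with a median of 0.25. Over all genes the same filter gave 3750 higher and 3497 lower of 16421, with a median of 0.02. Several of the higher genes were near or at 0 in the sham group. Ucn2, the gene of urocortin 2, a ligand of the CRH receptors, had 496, 186 and 149 counts after I/R and 0 in each sham library, at least 81.5-fold higher against 3 counts a library. Nmu, the neuromedin U gene, had 42, 16 and 13 counts against 0 (at least 6.96-fold higher), and Npvf 23, 11 and 12 against 0 (at least 4.57-fold higher).

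Trh, the thyrotropin-releasing hormone gene, had 58, 653 and 275 counts after I/R and 3, 12 and 12 in the sham group. All I/R libraries were above all sham libraries but differed widely, and the log2 fold change of 5.08 (SE 0.97, BH-adjusted p = 0.00497) came to 4.06 without I/R replicate 2. The call was lost with no count filter (BH-adjusted p = 0.0517) and with limma-voom (BH-adjusted p by limma = 0.0951). Adm, the adrenomedullin gene, had 645, 257 and 290 counts after I/R and 33, 30 and 46 in the sham group, with a log2 fold change of 3.26 (SE 0.39, BH-adjusted p = 0.000879). Prok2 had 42, 35 and 16 counts against 6, 5 and 5, with a log2 fold change of 2.36 (SE 0.51, BH-adjusted p = 0.00777). Trh and Prok2 passed the count filter only with their I/R counts, so their p-values are given as a description.

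Calca, the precursor of calcitonin gene-related peptide, had a log2 fold change of 1.94 (SE 0.33, BH-adjusted p = 0.00329). Among opioid-related precursors, Pomc rose by 0.94 (SE 0.27, BH-adjusted p = 0.0246) and Pnoc, the nociceptin precursor, by 0.68 (SE 0.21, BH-adjusted p = 0.0348). These 3 were named after their values were seen.

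The lower precursors were Sst and Cort, somatostatin and cortistatin of interneurons, named after their values were seen. Sst fell from 312 ± 24.2 CPM in the sham group to 210 ± 24.5 after I/R, with a log2 fold change of -0.57 (SE 0.12, BH-adjusted p = 0.00705). Cort went from 12.5 ± 0.438 to 8.45 ± 0.656 CPM, also at -0.57 (SE 0.13, BH-adjusted p = 0.00867). Without I/R replicate 3 and sham replicate 1 both calls were lost, with BH-adjusted p of 0.0527 for Sst and 0.0582 for Cort, and with library size alone that of Cort was 0.0722.

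**Figure D5:**
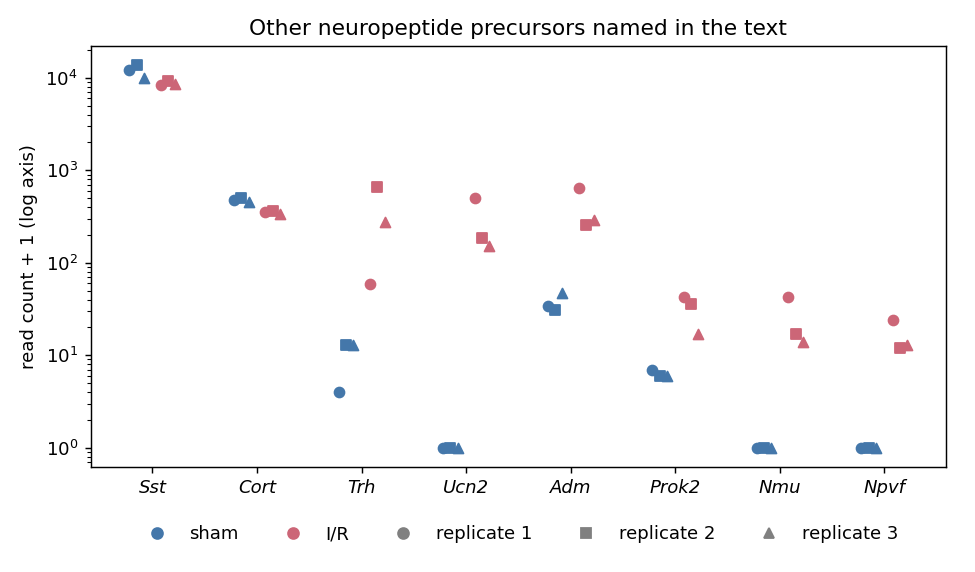
Read count plus 1 on a log axis for the 8 other peptide precursors Sst, Cort, Trh, Ucn2, Adm, Prok2, Nmu and Npvf, with a point for each of the 3 sham and 3 I/R libraries and a marker shape per replicate number. The sham points of Ucn2, Nmu and Npvf sit at 1, which stands for 0 counts, and the I/R points of Trh run from 58 to 653 counts.

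Peptide genes are also strongly expressed by regions next to the hippocampus, so markers of these regions were read beside the members. Of 12 tested striatal markers, 2 were higher (Drd1 and Syndig1l) and 2 lower (Ppp1r1b and Pde10a), 16.7% each beside 21.8% and 19.9% of all genes. The summed CPM of the list was 173 to 236 after I/R and 291 to 309 in the sham group. Within this sum Pde10a had the largest fall, from a mean of 114 CPM in the sham group to 56.1 after I/R. Drd2 had a log2 fold change of -0.21 (SE 0.31, BH-adjusted p = 0.614) and Adora2a -0.03 (SE 0.21, BH-adjusted p = 0.907), while Drd1 rose by 0.81 (SE 0.16, BH-adjusted p = 0.005). Of 6 tested habenular markers, 16.7% were higher and 33.3% lower, beside 21.8% and 19.9% of all genes. Gpr151 rose by 2.24 (SE 0.27, BH-adjusted p = 0.000908), Nwd2 and Calb2 fell and Chrnb4 had -0.21 (SE 0.86, BH-adjusted p = 0.866). The summed CPM was 51.2 to 57.1 after I/R and 74.5 to 84.1 in the sham group. Most of it was Calb2 (mean 26.7 after I/R, 39.4 in sham), also in the interneuron list, and Nwd2 (18.9 and 35.8), so this sum partly restates an interneuron gene. Of 8 tested thalamic markers, Slc17a6 and Ntng1 fell, 25% beside 19.9% of all genes, and none rose. Their summed CPM was 140 to 156 after I/R and 177 to 191 in the sham group. Of the 12 genes of the hypothalamic list, 7 were also in the list of other precursors and 9 were below the count filter. Its summed CPM of 8.63 to 20.3 after I/R and 2.84 to 3.44 in the sham group was mostly Trh and Pomc, so it restates the precursor values; the genes not shared summed to 0.375 to 1.08 and 0.205 to 0.615 CPM. No listed marker of these regions was at 0 in all libraries. Markers other than Drd1, Drd2, Adora2a, Gpr151 and Chrnb4 were named after their values were seen.

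Of 21 genes of the activity response, the class of early genes that firing and injury switch on, 15 were higher and 4 (Egr3, Egr4, Nr4a2 and Nr4a3) lower. These were 71.4% and 19%, beside 21.8% and 19.9% of all genes, and the median log2 fold change was 1.06. Fos had 114 ± 56.3 CPM after I/R and 8.79 ± 0.853 in the sham group. The part of neighbouring regions, and of the activity response, in the member results was not tested.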

How the data were processed

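Per the study's methods the authors aligned reads with TopHat2 to an Ensembl genome and counted them per gene with HTSeq, and the deposited table holds raw counts per gene and library. The submitters' processing notes also name Bowtie 0.12.2 and mm8, without a role. The gene identifiers and coordinates are those of the Ensembl annotation of BALB/cJ, although the labels give the strain as C57BL/6, so reads were counted against another strain's annotation. Whether strand was used is not given in the sources used here. The deposited table also holds FPKM, which the authors computed per library from counts and gene length; these were used to order levels between genes and, in 2 alternatives, for tests. Columns with the authors' own group values, fold changes and p-values were not used.

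The table had 41390 lines for 41386 genes, since 4 split lines were rejoined. Library totals were 37493042 to 44788547 counts, and composition factors (TMM) 1.06 to 1.15 in I/R and 0.908 to 0.920 in sham. I/R was compared with sham on the counts in edgeR 4.0.16, run under R 4.3.3 (filterByExpr, TMM, robust quasi-likelihood F-test without covariates), with Benjamini-Hochberg adjustment over 18569 genes. A gene was called at a fold change over 1.2 with an adjusted p under 0.05. The standard error (SE) was the size of the log2 fold change divided by the square root of F, and intervals are at 95%. A fold against a group at 0 was set against 3 counts per library; such floors cover counting error only.

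Alternatives were other scalings and filters, DESeq2 1.42.0, limma 3.58.1, a log2(FPKM + 1) or log2(FPKM + 0.1) scale, a fold over 2, unadjusted p, each library left out, I/R replicate 3 and sham replicate 1 left out together, and the replicate number as a block. All members were described. From other lists, called genes with a log2 fold change of at least 1 were named, at most 6 in a direction, and all tested receptors; other names were chosen after their values were seen. The members and lists were chosen with earlier results of these data known.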

Additional observations from a re-analysis of the deposited data

How the results depend on the processing

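Over 19 alternatives the number of members called was 4 to 6, and of the 5 DEGs Cck, Pdyn and Gal were called in all 19. Among these the unadjusted p could not lose a call. Counts of calls changed by over 1.5 times as follows, and the cause was not tested beyond what fewer genes, fewer samples or a stricter rule bring. With a fold over 2, other precursors went from 11 to 7, receptors from 11 to 5, processing and vesicle genes from 15 to 5, peptidases from 6 to 2 and all genes from 7756 to 2760. Other precursors were 6 with at least 10 counts in every library and 7 without I/R replicate 3 and sham replicate 1 together, where peptidases were 2. Leaving out 1 library gave 8 to 17 processing and vesicle genes (8 without sham replicate 2 or 3) and 2 to 7 peptidases (2 without sham replicate 1, 3 without sham replicate 3).

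Among the 45 genes refitted under the alternatives (the tested members and receptors, the genes named by rule, Sst and Cort), signs turned in 8, none of them called; other named genes were not refitted one by one. The medians of the members, of the processing and vesicle genes and of the peptidases also turned, as given beside them. With library size alone, log2(FPKM + 1) and log2(FPKM + 0.1), the log2 fold changes were 0.023, 0.022 and 0.025 for Tac1, 0.025, 0.012 and 0.019 for Oprm1, 0.044, 0.040 and 0.042 for Vipr1, 0.053, 0.0094 and 0.083 for Galr1, and 0.23, 0.080 and 0.19 for Galr2. Crhr2 had 0.043 with log2(FPKM + 0.1) and Galr2 0.00085 with at least 10 counts in every library. Without I/R replicate 3 and sham replicate 1 together, Galr1 had 0.31 and Galr2 0.55. Without 1 library, Galr1 ran from -0.57 to 0.48 (0.14 when I/R replicate 1 and 0.48 when sham replicate 1 was left out), Galr2 from -0.31 to 0.29 (0.21 when I/R replicate 3 and 0.29 when sham replicate 1 was left out), Oprk1 from -0.22 (I/R replicate 2 left out) to 0.25, Vipr2 from -0.36 (I/R replicate 1 left out) to 0.67, and Crhr2 from -0.72 to 0.0084 (sham replicate 3 left out).

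The labels number the replicates. Deviations of same-numbered libraries from their group means correlated at -0.0967, 0.0556 and -0.184, and none of the 3 I/R libraries correlated best with the sham library of its own number. The highest value, 0.267, joined I/R replicate 3 and sham replicate 1, which were both low in choroid plexus markers. These values showed no pairing by number, but so few pairs cannot exclude one. With the replicate block, 5 members, 9 other precursors, 11 receptors, 11 processing and vesicle genes, 5 peptidases and 6332 of all genes were called. Depth limits Gal, Crh, Galr1, Galr2, Vipr2 and the precursors near 0 counts, and 3 pools a group limit every test.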
